A study of Mus musculus with 2 samples.

Results

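The 10 genes described here encode the Slit ligands (Slit1, Slit2, Slit3), the Slit receptors Robo1 and Robo2, the netrin receptors Dcc, Unc5c and Unc5d, and the adhesion receptors Dscam and Dscaml1. They were taken by name from 21519 protein-coding genes, and a peak was counted to a gene when it overlapped by at least 1 bp the gene's RefSeq body (GRCm38, the assembly that mm10 represents) extended by 2 kb on both sides. The data were peak lists of H3K9me2, dimethylation of lysine 9 on histone H3, from chromatin immunoprecipitation and sequencing of cortex. One library came from TBC1D3-transgenic C57BL/6 embryos and 1 from wildtype C57BL/6 embryos, both at embryonic day 15.5. TBC1D3 is a hominoid gene that mice lack. The promoter of the transgene and the number of embryos behind each library are not given in the sources used here. The genes held 11 of the 6253 peaks of the transgenic list and 2 of the 743 peaks of the wild-type list. With 1 library per genotype there was no replicate and no test between genotypes. Every interval below is a 95% interval that covers counting error only.

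Slit proteins are secreted, bind Robo receptors and mostly repel growing axons and migrating neurons. Netrin attracts axons through Dcc, and Unc5 receptors, alone or with Dcc, turn the response into repulsion. Dscam and Dscaml1 bind their own kind on neighbouring cells and take part in the spacing and self-avoidance of neurites, and Dscam has also been described as a netrin receptor. In the developing cortex these families guide callosal and corticofugal axons, and Robo signalling also acts in cortical progenitors. H3K9me2 is a mark of repressed chromatin that usually covers broad domains. It is laid down largely by G9a, the methyltransferase that the study's title pairs with TBC1D3.

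The start sites of Robo1 and Robo2 are shown because the positions of the peaks in these genes are given against them. The lines give the 250 bases before a RefSeq start (GRCm38.p6), 5′ to 3′ on the gene's strand, with each CG dinucleotide in capitals.
Robo1, chr16:72662899-72663148, plus strand: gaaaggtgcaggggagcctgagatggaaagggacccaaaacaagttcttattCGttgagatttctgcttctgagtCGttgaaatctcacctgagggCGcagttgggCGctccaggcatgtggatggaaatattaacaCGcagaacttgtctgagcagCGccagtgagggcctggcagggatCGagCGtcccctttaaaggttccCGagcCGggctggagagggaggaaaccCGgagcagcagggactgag
Robo2 outer start, chr16:75447294-75447543, minus strand: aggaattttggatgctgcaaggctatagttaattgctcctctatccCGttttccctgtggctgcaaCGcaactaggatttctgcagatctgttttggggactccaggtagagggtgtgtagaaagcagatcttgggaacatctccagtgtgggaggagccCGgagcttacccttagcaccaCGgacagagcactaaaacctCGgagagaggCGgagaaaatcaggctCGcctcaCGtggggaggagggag
Robo2 middle start, chr16:75092771-75093020, minus strand: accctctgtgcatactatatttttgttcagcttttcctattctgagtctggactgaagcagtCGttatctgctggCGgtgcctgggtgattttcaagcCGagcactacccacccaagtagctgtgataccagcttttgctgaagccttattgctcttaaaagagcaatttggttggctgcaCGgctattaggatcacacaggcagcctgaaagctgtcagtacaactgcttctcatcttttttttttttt
Robo2 inner start, chr16:74411826-74412075, minus strand: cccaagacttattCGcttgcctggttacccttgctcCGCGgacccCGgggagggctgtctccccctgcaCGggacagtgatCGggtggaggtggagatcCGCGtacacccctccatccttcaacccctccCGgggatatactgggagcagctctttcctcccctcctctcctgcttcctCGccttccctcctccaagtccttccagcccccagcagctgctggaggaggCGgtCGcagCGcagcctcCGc
Slit2 and Slit3 each carry a copy of the microRNA miR-218, which is known to repress Robo1 and Robo2 in other settings. Both copies give the same mature 5p strand, shown with its seed (bases 2 to 8) in capitals.
mmu-miR-218-5p, from Mir218-1 in Slit2 and Mir218-2 in Slit3: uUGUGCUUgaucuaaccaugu

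In the transgenic list 5 of the 10 genes held a peak: Robo1, Robo2 and Dcc with 3 each, and Slit3 and Dscam with 1 each. In the wild-type list 2 held a peak, Dcc and Dscam, with 1 each. Slit1, Slit2, Unc5c, Unc5d and Dscaml1 had 0 peaks in both lists. Of all coding genes, 5.68% held a transgenic peak and 0.911% a wild-type peak. All 10 genes are longer than 100 kb, and of 2424 coding genes of 100 kb or more, 30.1% held a transgenic and 6.23% a wild-type peak. Apart from Slit1 the genes are of 300 kb or more, where the shares were 65.3% and 16%. The 10 genes with their flanks span 6.63 Mb. Their transgenic density was 1.66 peaks per Mb (0.828 to 2.97), and their wild-type density was 0.302 peaks per Mb (0.0365 to 1.09). At the density of each gene's own chromosome they would have held 17.3 transgenic and 1.86 wild-type peaks. The ratio of found to that number was 0.637 (0.318 to 1.14) in the transgenic list and 1.08 (0.130 to 3.88) in the wild-type list, and both intervals include 1. Over all coding genes of 300 kb or more the same ratio was 1.144 in the transgenic and 1.193 in the wild-type list. Over those of 100 kb or more it was 0.894 and 0.966. Among peaks with a −log10 p of at least 5 the ratios of the 10 genes were 1.02, from 6 transgenic peaks, and 2.55, from 1 wild-type peak. The wild-type ratio of 1.08 rests on 2 peaks, and it was 0.58 with Dscam left out and 0.668 with Dcc left out. The genes held 0.176% of transgenic peaks (exact binomial interval 0.0878 to 0.315) and 0.269% of wild-type peaks (0.0326 to 0.969). Of the 13 peaks in these genes, 84.6% (54.6 to 98.1) came from the transgenic list, against 89.4% of all peaks.

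**Figure D1:**
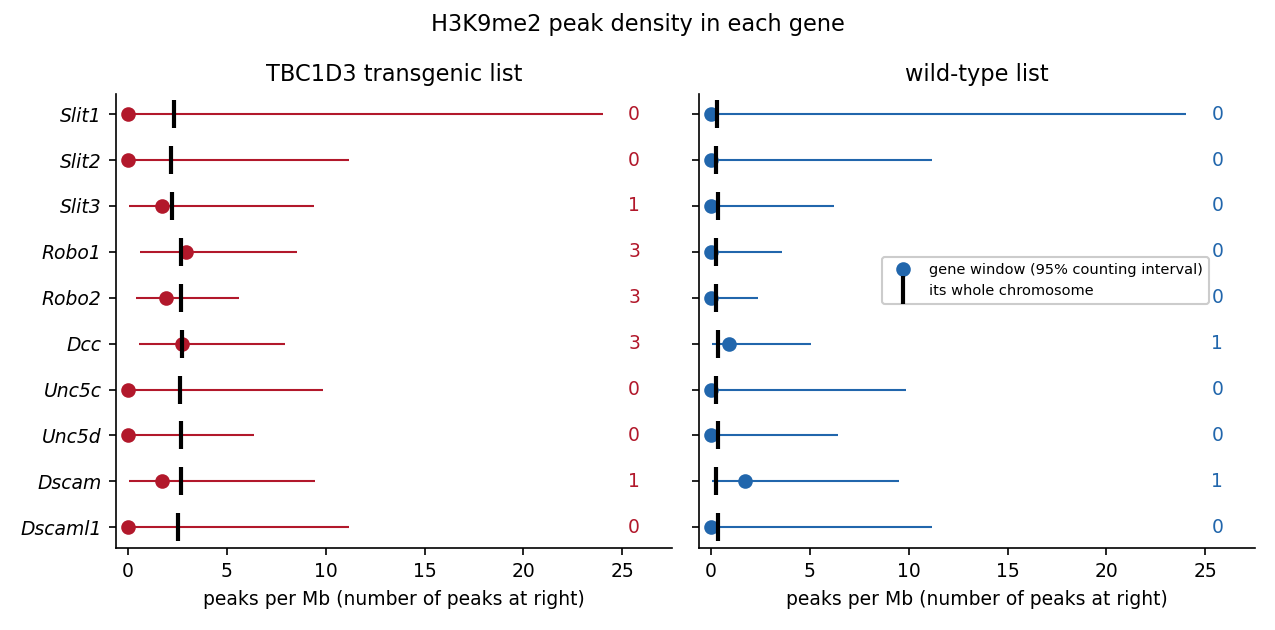
Peaks per Mb in each gene with 2 kb flanks (dots, with exact Poisson 95% intervals as lines) and over its whole chromosome (black ticks), for the transgenic list on the left and the wild-type list on the right, with the number of peaks at the right edge of each panel. The interval of every gene in both lists covers the density of its chromosome, and the shortest gene, Slit1, has the widest interval.

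Among the ligands, Slit3 alone held a peak, in the transgenic list. Slit3 (chr11:35121456-35708507) had 1 transgenic peak at chr11:35189969-35190119 and 0 wild-type peaks, where the density of chromosome 11 gives 1.33 and 0.199. The peak rested on 5 fragments, the smallest number in the list, and its fold enrichment of 2.86 was below that of 96.9% of transgenic peaks. It lay 68.6 kb downstream of the Slit3 start. Slit2 (chr5:47981291-48307735) had 0 peaks in both lists where the chromosome's density gives 0.710 transgenic and 0.0850 wild-type peaks. Slit1 (chr19:41597824-41747275) also had 0 and 0, against 0.358 and 0.0426. A count of 0 allows up to 3.69 peaks by its interval, so a lower density than the chromosome's was not detectable in these genes one by one. The nearest transgenic peak lay 242 kb above Slit2 and 766 kb above Slit1. The miR-218 copies overlapped no peak, and their distances to peaks were not compared with those of other positions. Chromosome 5 holds 2.15 transgenic and 0.257 wild-type peaks per Mb, and chromosome 11 holds 2.25 and 0.336. Mir218-1 in Slit2 (chr5:48223942-48224051) was 325 kb from the nearest transgenic and 1015 kb from the nearest wild-type peak. Mir218-2 in Slit3 (chr11:35616816-35616925) was 427 kb from the nearest transgenic peak, the one inside Slit3, and 892 kb from the nearest wild-type peak.

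Robo1 and Robo2, the Slit receptors, held 3 transgenic and 0 wild-type peaks each. Robo1 (chr16:72027518-73047491) had 2.93 transgenic peaks per Mb (0.604 to 8.56), against 2.67 on chromosome 16. Its peaks lay at chr16:72457391-72457522, chr16:72476845-72476955 and chr16:72751002-72751149, with folds of 3.39, 4.03 and 3.82. The first and second are 19.3 kb apart. They lay 206 kb and 186 kb upstream of the Robo1 start printed above but inside the RefSeq gene span, which reaches lower on the chromosome than that start. The third lay 87.9 kb downstream of the start. Chromosome 16 at its wild-type density gives 0.240 peaks in Robo1, so 0 wild-type peaks does not set Robo1 apart.

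Robo2 (chr16:73891976-75447443), the longest of the 10 genes, had 1.92 transgenic peaks per Mb (0.397 to 5.62), and its 3 peaks stand against 4.17 at the density of chromosome 16. Of the 11 transgenic peaks the one of lowest p lay here, at chr16:74560675-74560808, with 8 fragments, a fold of 4.53 and a listed q of 0.0742. The other Robo2 peaks, at chr16:74736454-74736614 and chr16:75348268-75348401, had 7 fragments and a fold of 4.03 each. Against the starts printed above, the peak at 75348268 lay between the outer and the middle start, 99.0 kb downstream of the outer one. The peaks at 74736454 and 74560675 lay between the middle and the inner start, 356 kb and 532 kb downstream of the middle one. Robo2 had 0 peaks of either list between its inner start and its lower end. The wild-type density of the chromosome gives 0.366 peaks in Robo2.

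Dcc was the netrin receptor with peaks in both lists. Dcc (chr18:71253613-72351228) held 3 transgenic peaks, or 2.72 per Mb (0.562 to 7.96), against 2.75 on chromosome 18, and 1 wild-type peak, or 0.908 per Mb (0.0230 to 5.06), against 0.331. The transgenic peaks lay 1.09 kb, 277 kb and 755 kb from the lower end of the gene, with 6, 7 and 7 fragments. The wild-type peak at chr18:72183445-72183501 lay 929.9 kb from that end, with 5 fragments and a fold of 3.73. Its distance to the nearest transgenic peak was 175 kb. Unc5c (chr3:141465564-141834924) had 0 peaks in both lists where the chromosome's density gives 0.983 transgenic and 0.100 wild-type peaks. Unc5d (chr8:28646717-29219671) had 0 and 0, against 1.55 and 0.214. Unc5d was the longest of the genes with 0 transgenic peaks, and its interval for that list runs to 6.39 peaks per Mb, above the 2.69 of chromosome 8.

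Dscam (chr16:96587452-97171113) held 1 transgenic and 1 wild-type peak, with 226.5 kb between their ends. The transgenic peak, at chr16:96708722-96708861, had 6 fragments and a fold of 3.47, which 62.4% of the transgenic list exceeded. The wild-type peak, at chr16:96935368-96935424, had 7 fragments and a fold of 4.72, which 14.3% of the wild-type list exceeded. Its listed q was 1, as was that of the wild-type peak in Dcc. These peaks lay 462 kb and 235 kb downstream of the Dscam start. At chromosome density Dscam would hold 1.57 transgenic and 0.138 wild-type peaks. Dscaml1 (chr9:45427433-45753713) had 0 peaks in both lists, against 0.839 and 0.111. The nearest peaks lay 606 kb above it in the transgenic list and 178.5 kb below it in the wild-type list.

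**Figure D2:**
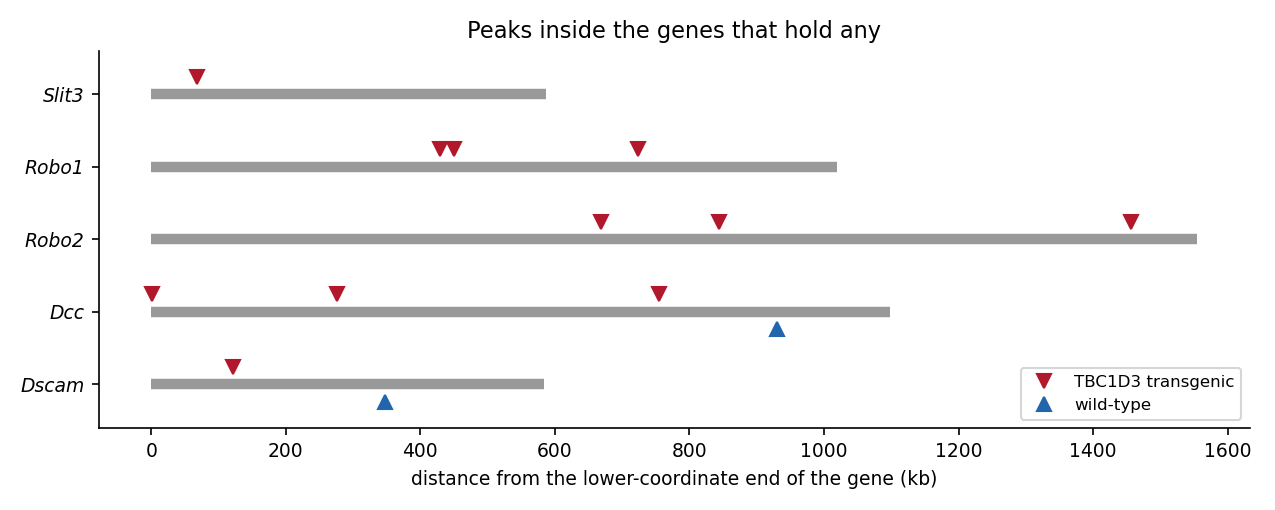
Positions of the transgenic peaks (red, above) and wild-type peaks (blue, below) along the 5 genes that hold any, in kb from each gene's lower-coordinate end, with gene bodies as grey bars to scale. The 11 transgenic peaks lie scattered along the genes, and Dcc and Dscam also hold 1 wild-type peak each.

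All 13 peaks lay inside the gene bodies and 0 in the 2 kb flanks. The flanks are a small part of the 6.63 Mb counted, so 0 peaks there does not set the bodies apart. The peak nearest to a boundary on the inside was the transgenic one 1.09 kb inside the lower end of Dcc, and the nearest on the outside were transgenic peaks 26.2 kb above Robo2, 26.4 kb below Dcc and 28.7 kb below Dscam. None of the 13 overlapped a peak of the other list. The peaks are narrow, 111 to 161 bp in the transgenic list and 57 bp in the wild-type list. The share of all peaks that overlap the other list was not counted, so the lack of overlap cannot be called particular to these genes. The folds of the 11 transgenic peaks ran between 2.86 and 4.53 with a median of 4.03, beside a median of 3.62 for the whole transgenic list. The 2 wild-type folds of 3.73 and 4.72 lie on either side of that list's median of 3.90. Fragments at the summit numbered 5 to 8 in the transgenic peaks and 5 and 7 in the wild-type peaks. The median peak of each list had 6. Listed q ran between 0.0742 and 0.374 in the transgenic peaks. The lowest q of any peak was 0.0673 in the whole transgenic list and 0.136 in the whole wild-type list. Other quantities moved with genotype too. The peaks were called with a fragment extension of 111 bp in the transgenic library and 57 bp in the wild-type library, and from 20697113 and 26735120 ChIP tags. The transgenic list was 8.42 times as long as the wild-type list. The part of these in the counts per gene was not tested.

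The counts are set beside those of coding genes of like length, since longer genes hold more peaks. Robo1, Robo2 and Dcc are the 3 genes of 1 Mb or more, and all 3 held transgenic peaks, as did 94.9% of the 59 coding genes of that length. Those 59 genes averaged 4.07 transgenic peaks each, and 69.5% of them held 3 or more. Of the 6 genes of 300 kb to 1 Mb, 2 held a transgenic peak, where 61.8% of 497 coding genes of that length did. The gene of 100 to 300 kb, Slit1, held 0, where 19.6% of such genes held a transgenic peak. In the wild-type list 1 of 3, 1 of 6 and 0 of 1 genes held a peak in the same order of bands, beside 39%, 13.3% and 3.32% of coding genes. Peaks in both lists, seen in Dcc and Dscam, were held by 4.41% of coding genes of 100 kb or more, by 39% of those of 1 Mb or more and by 10.9% of those of 300 kb to 1 Mb. Robo1, Robo2 and Dcc together had 9 transgenic peaks against 9.93 at chromosome density (ratio 0.906, 0.415 to 1.72). The other 7 genes had 2 against 7.34 (ratio 0.273, 0.0330 to 0.984). This split was made after the counts were seen, and the interval does not allow for that choice.

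**Figure D3:**
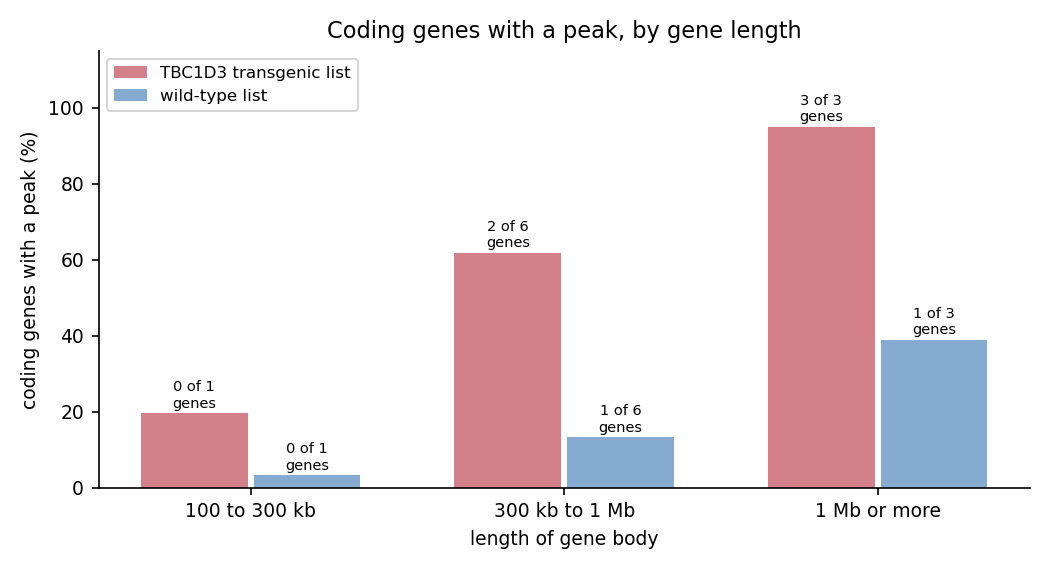
Share of all coding genes that hold at least 1 peak, by length of the gene body, in the transgenic list (red) and the wild-type list (blue), with the number of the 10 genes that hold a peak written above each bar. The share rises with length in both lists, and 2 of 6 genes stand in the middle transgenic bar of 61.8%.

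A gene was also called when its density was at least 2 times that of its chromosome. The transgenic list gave 0 such calls among the 10 genes, beside 15.2% of coding genes of 100 kb or more. Those coding genes have a median body of 171.9 kb, and the 10 genes one of 578.3 kb. A shorter gene reaches the limit with fewer peaks, so 0 beside 15.2% does not show a lower density in the 10 genes. The wild-type list gave 2, Dcc with a ratio of 2.74 (0.0694 to 15.3) and Dscam with 7.26 (0.184 to 40.4), beside 6.19% of such coding genes. Any single wild-type peak passes this limit in each of the 10 genes, because the chromosome densities give at most 0.366 wild-type peaks in any of them.

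The sequence around the genes held more transgenic peaks per Mb than the genes themselves. Over the 1 Mb on either side, with shared bases counted once, there were 66 transgenic peaks in 18.8 Mb, or 3.50 per Mb (2.71 to 4.46). The ratio of the genes to this sequence was 0.474 (0.226 to 0.904). It rose to 0.516 (0.234 to 1.02) with Dscam left out, so that the interval then includes 1. Among peaks with a −log10 p of at least 5 it was 0.898 (0.293 to 2.34). With shared bases counted for each gene, the ratio was 0.4675 for the 10 genes. It was 0.857 for coding genes of 100 kb or more and 0.992 for those of 300 kb or more. The surroundings of these coding genes held 2.51 and 2.78 transgenic peaks per Mb, beside 3.55 around the 10 genes. In 10 of 10 genes the transgenic density was lower inside than on either side, as it was in 72.1% of coding genes of 100 kb or more and in 58.5% of those of 300 kb or more. For 5 of the 10 the count inside was 0, so any peak around them made the inside lower. Robo1 and Robo2 share the sequence between them, so the 10 genes are not separate observations. Dscam had 1.70 peaks per Mb inside and 6.00 outside. Dcc had 2.72 inside and 6.00 outside, and Robo2 had 1.92 and 5.50. For Slit1 the values were 0 and 0.5, from 1 peak in the surrounding 2 Mb. In the wild-type list the genes held 2 peaks and their surroundings 5, or 0.302 and 0.265 per Mb, with a ratio of 1.14 (0.108 to 6.95). There 5 of 10 genes were lower inside, beside 39.9% of coding genes of 100 kb or more. This comparison was chosen after the counts were seen.

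**Figure D4:**
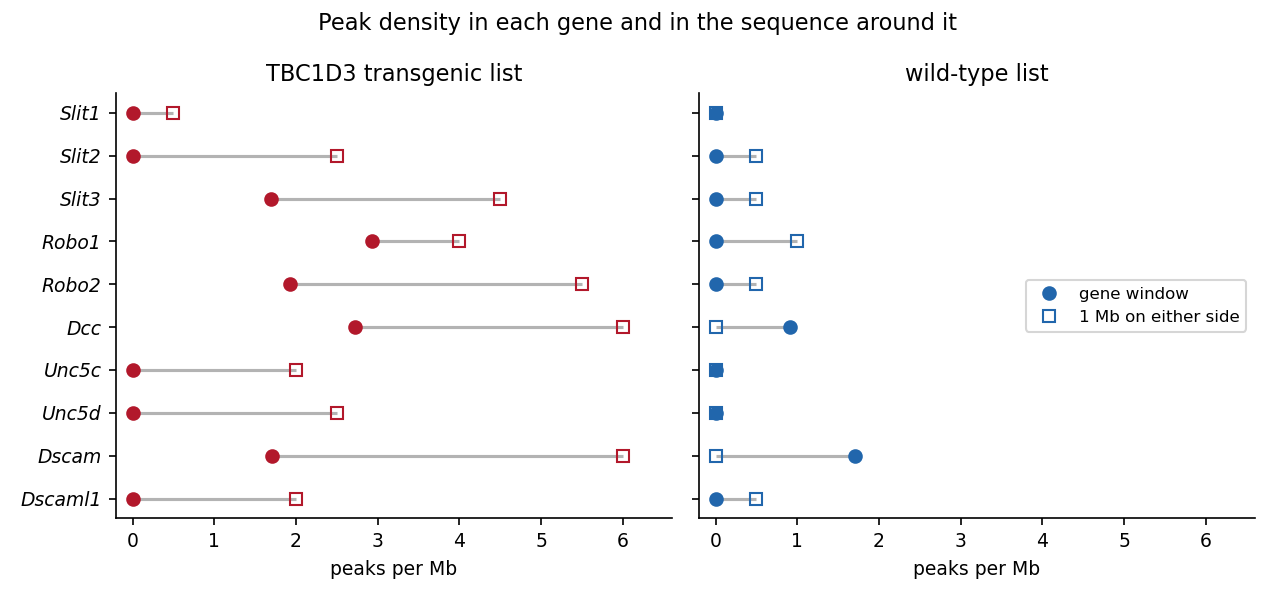
Peaks per Mb in each gene with 2 kb flanks (filled circles) and in the 1 Mb on either side (open squares), for the transgenic list on the left and the wild-type list on the right. In the transgenic panel the circle lies left of the square for 10 of 10 genes, of which 5 have 0 peaks inside. In the wild-type panel the circle lies right of the square for Dcc and Dscam, the genes with a wild-type peak.

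Robo1 and Robo2 are neighbours on chromosome 16, separated by 844.5 kb that hold no coding gene. The span from 1 Mb below Robo1 to 1 Mb above Robo2 (chr16:71027518-76447443, 5.42 Mb) held 20 transgenic and 2 wild-type peaks. That is 3.69 transgenic peaks per Mb (2.25 to 5.70) against 2.67 on the whole chromosome, and 0.369 wild-type peaks per Mb (0.0447 to 1.33) against 0.2345, so neither interval excludes the chromosome's density. Of the 20 transgenic peaks 3 lay below Robo1, 3 in Robo1, 5 between the genes, 3 in Robo2 and 6 above Robo2. Between the genes the density was 5.92 per Mb (1.92 to 13.8) and above Robo2 6.00 (2.20 to 13.1), beside 1.93 (0.398 to 5.64) in the body of Robo2. These intervals overlap.

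Both wild-type peaks of the span lay outside the genes. Most positions in the span lie between transgenic peaks, so the distances below only describe where the peaks are. One, at chr16:73147552-73147608, lay in the long noncoding gene 4930500H12Rik between Robo1 and Robo2, with 7 fragments and a fold of 4.40. That noncoding gene also held 3 transgenic peaks. They lay at chr16:73130143-73130253, 17.3 kb below the wild-type peak, at chr16:73167194-73167341, 19.6 kb above it, and at chr16:73205608-73205793. The other wild-type peak, at chr16:71718577-71718633 and 309 kb below Robo1, had 8 fragments, a fold of 5.29 and a listed q of 0.804. Transgenic peaks flanked it at 56.9 kb and 35.55 kb. The one at 35.55 kb, chr16:71754178-71754288, had a fold of 4.89, which 3.1% of the transgenic list exceeded, and a q of 0.0673. No transgenic peak has a lower q, but how many share this value was not counted, so it does not mark the strongest peak. No peak of one list overlapped a peak of the other in the span, and the share over all peaks was not counted.

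Above Robo2 the coding genes Lipi (a lipase), Rbm11 (an RNA-binding protein), Hspa13 (a heat shock protein relative) and Samsn1 (an adaptor of immune cells) held 0 peaks in both lists. Nrip1, a corepressor of nuclear receptors, held 1 transgenic and 0 wild-type peaks. A pair of transgenic peaks, at chr16:75665822-75665984 and chr16:75668016-75668137, lay inside the overlapping noncoding genes Gm41474 and Gm30162. The nearest coding gene below Robo1 was Gbe1, the glycogen branching enzyme, 1458 kb away and with 0 peaks in both lists.

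**Figure D5:**
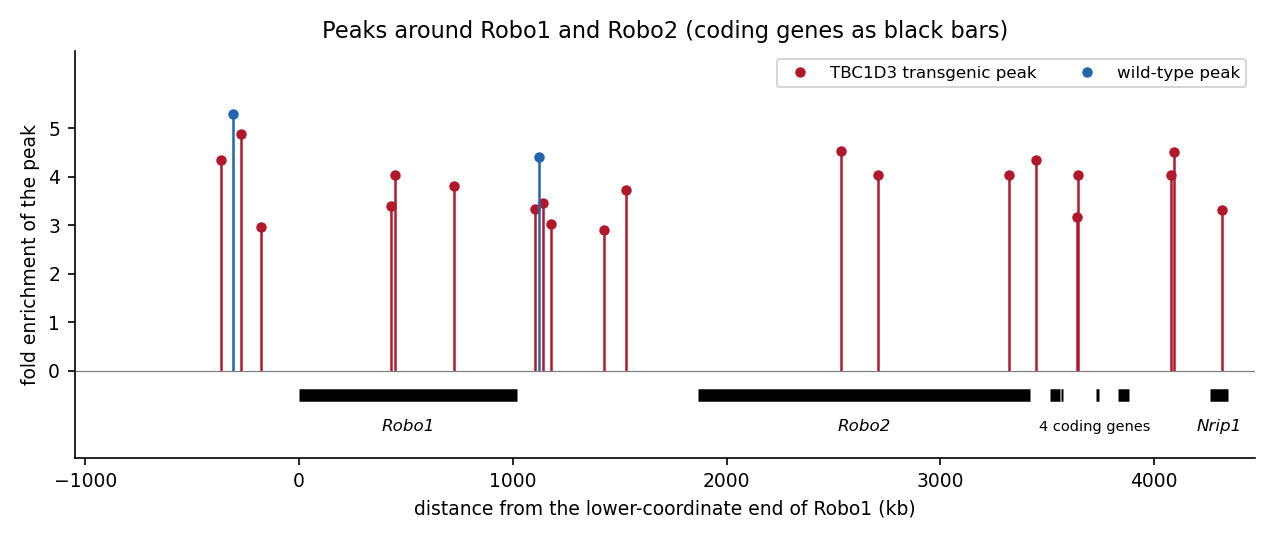
Fold enrichment of each transgenic peak (red) and wild-type peak (blue) across the span around Robo1 and Robo2, against distance in kb from the lower-coordinate end of Robo1, with coding genes as black bars. Of the wild-type peaks 1 stands below Robo1 and 1 between the genes, and 0 lie in either gene.

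RefSeq start windows of 250 bases before and 50 after a start were at hand for 6 of the 10 genes, 8 windows in all: 3 for Robo2 and 1 each for Robo1, Slit2, Slit3, Unc5c and Dscam. None held a peak of either list. Of 32619 start windows 0.0582% overlapped a transgenic and 0.00613% a wild-type peak, so 0 of 8 is what the background gives. The nearest transgenic peak to any of the 8 lay 26.1 kb from the upstream edge of the window at the outer start of Robo2. The windows differed in CG dinucleotides, a motif that reads the same on both strands. In the 250 bases before the start Slit3 had 35, Slit2 25, Unc5c 23, Dscam 21, Robo1 11, and the Robo2 starts 8, 4 and 14 in the order printed above. The median over all windows was 6, and 92.2% held at least 1.

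Of 39 other genes of the same pathways, listed by role, 4 held a transgenic peak and 1 a wild-type peak, beside 5.68% and 0.911% of all coding genes. Of the 39, 17 are of 100 kb or more, where the shares were 30.1% and 6.23%. The list held 6 transgenic peaks (2.20 to 13.1) and 1 wild-type peak (0.0253 to 5.57), where chromosome densities give 12.3 and 1.52, within both intervals. Over all coding genes the counts were also below chromosome density, at 0.697 and 0.673 times. Among 11 netrins and other ligands Ntng1, a membrane-anchored netrin relative, held 2 transgenic peaks with folds of 4.41 and 2.86. Netrin-1 itself (Ntn1) held 0 in both lists. None of 10 other receptors and co-receptors, which include Robo3, Unc5a, Unc5b and the Dcc relative Neo1, held a peak. They are short, with a median body of 52.7 kb, and chromosome densities give 1.55 transgenic and 0.175 wild-type peaks over all 10. Among 18 intracellular partners Dock1, a Rac activator downstream of Dcc, held 2 transgenic peaks and 1 wild-type peak. Srgap1, a GTPase-activating protein that binds Robo, and the tyrosine kinase gene Abl1 held 1 transgenic peak each.

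The genes most like Dcc in pattern were taken as those with the same count in both lists and the closest body length. Of 13 other coding genes with 3 transgenic and 1 wild-type peak, these were Nrg1, Ptprt and Tenm3, with bodies 1.01, 1.04 and 1.18 times apart from that of Dcc in length. For Dscam 42 other coding genes had 1 peak in each list. The closest in length were Clstn2, Foxp2 and Mctp1, at 1.01, 1.08 and 1.115 times. The likeness rests on whole-number counts in 2 libraries.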

How the data were processed

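H3K9me2 ChIP was measured in 1 TBC1D3-transgenic and 1 wild-type library. In each library, per the file headers, peaks were called by the authors against its own input with MACS 2.1.0.20150420, at a p cutoff of 0.001, with no shift model, summit calling on and broad calling off. The submitters' processing notes also name BWA and mm10. Per the file headers, tags after filtering were 20697113 ChIP and 20968853 input for the transgenic library, and 26735120 and 25431051 for the wild-type library. The deposited pileup signal counts extended fragments at the summit after scaling, and it was divided by 0.951 in the wild-type list to give fragments (whole within 0.0049). The deposited fold is the ratio of pileup plus 1 to local background plus 1. The −log10 p- and q-values are deposited as the caller wrote them. The headers say that q was not calculated, yet the column is filled. These per-peak values of the authors served to describe or filter peaks within a list.

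Genes came from a RefSeq table of GRCm38.p6. On the autosomes and X, 49210 genes were used, after 340 that start below 3 Mb had been left out. The table has no exons, so a position inside a gene could be exonic, intronic or untranslated. Chromosome length was taken as the end of the last gene. Intervals are exact Poisson for counts and densities and exact binomial (Clopper-Pearson) for shares. Ratios of densities use them on the counts. Counting was tested on simulated peaks. The named genes are the 10 genes, pathway genes with a peak, coding genes in and beside the Robo1 and Robo2 span, and the 3 genes most like each gene with peaks in both lists. Further pathway genes were named after their values were seen. The genes and lists were chosen with earlier results of these data known. Alternatives were other flanks, midpoints, peak thresholds, merging, list length, spans and background densities. A peak list carries no expression values, so the tissue label was not checked against markers. Python 3.11.15, numpy 2.4.6, pandas 2.3.3 and scipy 1.17.1 were used.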

Additional observations from a re-analysis of the deposited data

How the results depend on the processing

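With 1 library per genotype no library could be left out. No paired analysis was possible because each genotype has 1 library and the result comes from no test. The thresholds below keep only part of each list, so counts at them cannot rise. A fold of at least 5 left 166 of the 6253 transgenic peaks and 62 of the 743 wild-type peaks. The 10 genes then held 0 transgenic and 0 wild-type peaks, in 0 and 0 genes. At this fold the ratios to the chromosomes were 0 and 0, and the wild-type ratio to the surroundings was 0. The Robo1 and Robo2 span then held 0 transgenic peaks and 1 wild-type peak. A −log10 p of 5 or more left 2036 transgenic and 185 wild-type peaks. The genes then held 6 transgenic peaks and 1 wild-type peak, in 3 genes and 1 gene, and the span held 10 and 1. With as many transgenic peaks of lowest q as the wild-type list holds, the genes held 1 transgenic peak, in 1 gene, and the span 3. The span without its 1 Mb extension held 11 transgenic peaks and 1 wild-type peak. The ratio of the 10 genes to their chromosomes ran between 0.55 (Robo1 left out) and 1.02 (−log10 p of at least 5) in the transgenic list and between 0.58 (Dscam left out) and 2.55 (−log10 p of at least 5) in the wild-type list under the other settings, within the intervals of the values reported. The first 3 Mb of each chromosome left out, a setting chosen after seeing the data, gave 0.619 and 1.04. Settings of the ratio to the surroundings were also chosen after seeing the data. Surroundings of 0.5 Mb and 2 Mb gave 0.454 and 0.518 in the transgenic list, and 0.742 and 1.39 in the wild-type list. At a fold of at least 5 the 0 transgenic peaks in and around the genes gave no ratio. No flank, a 10 kb flank, midpoints and merging within 1 kb left the counts of peaks at 11 and 2.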
